A study of Mus musculus with 16 samples.

Results

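The genes described here are 29 members of cholesterol synthesis, its regulation, and cholesterol transport, turnover and efflux in the mouse striatum. They were chosen by name, with earlier results of these data known. All 29 passed a filter of 10 counts or more in no fewer than 4 of 16 libraries, which kept 19363 of 55450 genes. RNA was sequenced from the striata of 16 untreated male mice on a C57Bl/6 background, all aged 14 weeks. Every mouse gave its own library, and each of 4 groups held 4 mice. R6/1 mice carry a transgene with the first exon of human huntingtin and an expanded CAG repeat, under the human huntingtin promoter, and serve as a model of Huntington disease, while their wild-type littermates do not carry it. Within each genotype, the mice at the better and the worse end of the rotarod, clasping and body weight scores had been labelled “good” and “poor”, which with the genotype gave the 4 groups. The labels therefore describe performance relative to mice of the same genotype, and the mice of average performance are not among the groups. By role, the members fall into 7 genes of the mevalonate and isoprenoid steps, 3 of the squalene and lanosterol steps, 8 of the steps from lanosterol to cholesterol, 5 of regulation, and 6 of transport, turnover and efflux.

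Cholesterol does not pass from the blood into the adult brain, so brain cells make their own from acetyl-CoA, by way of mevalonate, isoprenoid units, squalene and lanosterol. The transcription factor SREBP2, the product of Srebf2, turns on the genes of this route when sterols are low, while INSIG proteins hold SREBP and its escort SCAP in the endoplasmic reticulum when sterols are high. Neurons dispose of surplus cholesterol mainly through the hydroxylase CYP46A1, whose product leaves the brain and also activates the liver X receptors, which in turn drive the efflux pumps ABCA1 and ABCG1. Lower cholesterol synthesis is a known feature of Huntington disease models, and the comparisons below ask at which steps the mRNAs differed and whether they followed genotype or performance.

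Total counts per library ran from 16155356 to 24897354. Markers of medium spiny neurons, the main cells of the striatum, were present in every library, with summed levels of 6760.1 to 10551 CPM (counts scaled to the size of the library) in wild-type “good” mice and 1579 to 2296 in R6/1 “poor” mice. Markers of cortical neurons summed to between 11.5 and 741 CPM over the 16 libraries, with a wide spread within every group, and 0 of 5 were called in any comparison. Each column header carries a running number of the library, which is tied to the groups. What the number stands for is not stated, and the split into 1 to 8 and 9 to 16 was chosen here. All 4 R6/1 “good” mice have numbers 1 to 8, beside mouse 2 of the R6/1 “poor” group and 3 wild-type mice (mice 1 and 4 of the “good” and mouse 1 of the “poor” group), and the other 8 mice have numbers 9 to 16.

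Levels between genes were compared as CPM per kb of exons, on the GENCODE M21 gene models. The length takes in every annotated exon base of a gene, whether or not its transcript is expressed here, so the order depends on the models. On this scale Cyp46a1 was the highest member in wild-type mice at 73.4 ± 7.86 CPM per kb (SD, n = 8). Hmgcs1, which makes the direct precursor of mevalonate, came next at 44.7 ± 6.20, followed by Srebf2 at 31.1 ± 1.79 and Insig1 at 26.5 ± 2.72. The ranges over the 8 mice did not overlap from Cyp46a1 to Hmgcs1 or from Hmgcs1 to Srebf2, but did from Srebf2 (29.1 to 33.9) to Insig1 (21.6 to 30.6). Further down, neighbours in the order overlapped except between Nr1h2 and Scap, Stard4 and Tm7sf2, and Lss and Nr1h3. The lowest were the liver X receptor gene Nr1h3 at 1.62 ± 0.212 and Fdps at 1.24 ± 0.105 CPM per kb. These 2 rest on few reads, 1534 counts in all 16 libraries for Nr1h3 and 1656 for Fdps. Fdps also shares 26.7% of its exon bases with the gene model Gm43738 on the same strand, which is listed with 0 counts, so the level of Fdps is uncertain.

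**Figure D1:**
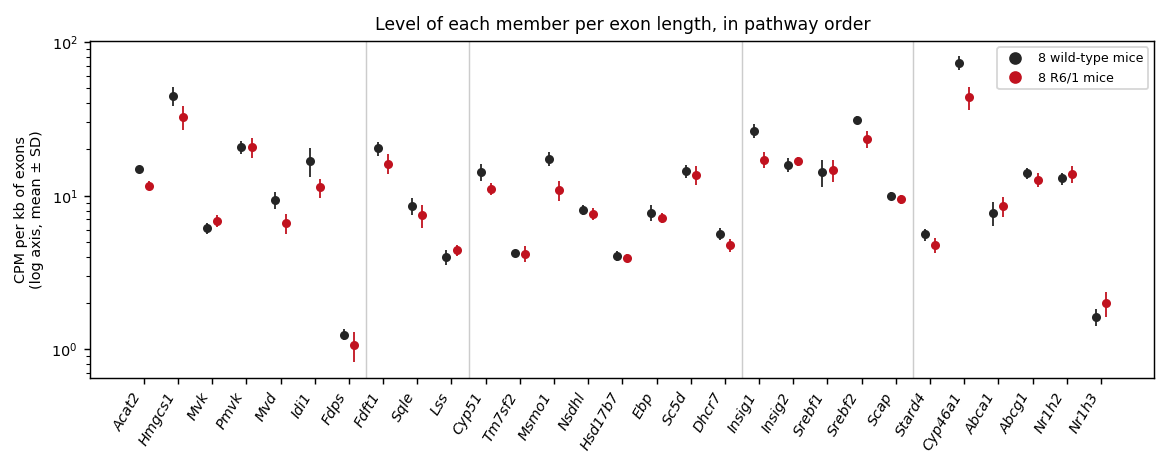
Level of each of the 29 members in CPM per kb of exons on a log axis, in pathway order, as mean ± SD of the 8 wild-type mice (black) and the 8 R6/1 mice (red). Grey lines part the 5 steps, and Cyp46a1, Hmgcs1, Srebf2 and Insig1 lie highest in wild-type mice and below them in R6/1 mice.

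In the 8 R6/1 mice against the 8 wild-type mice, 12 of the 29 members were lower and 0 were higher by the quasi-likelihood test of edgeR, with p adjusted over all genes after Benjamini and Hochberg and a threshold of 0.05. Over all 19363 genes 34.2% were called, 17.0% lower and 17.2% higher, beside 12 of 29 members lower and 0 higher. The larger share lower is a description, since the members were chosen with earlier results of these data known. The 12 were Acat2, Hmgcs1, Mvd, Idi1, Fdft1, Cyp51, Msmo1 and Dhcr7 of synthesis, Insig1 and Srebf2 of regulation, Stard4 of transport and Cyp46a1 of turnover. Their log2 fold changes ran from -0.75 for Cyp46a1 to -0.23 for Stard4, which is 1.68-fold to 1.17-fold lower. The median log2 fold change of the 29 members was -0.14 against 0.021 for all genes, and over the 18 synthesis genes alone it was -0.21. The other 17 members did not pass the threshold and had log2 fold changes between -0.23 for Fdps and 0.30 for Nr1h3. For 5 members, Acat2, Msmo1, Insig1, Srebf2 and Cyp46a1, each of the 8 R6/1 mice was below each of the 8 wild-type mice, a pattern that 5.03% of all genes showed in this direction and 4.05% in the other, where it was seen for 0 members. At an unadjusted p under 0.05 the count was 16 of 29 members, against 43.3% of all genes. In a bulk sample, fewer cells of a type and less RNA per cell cannot be told apart.

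**Figure D2:**
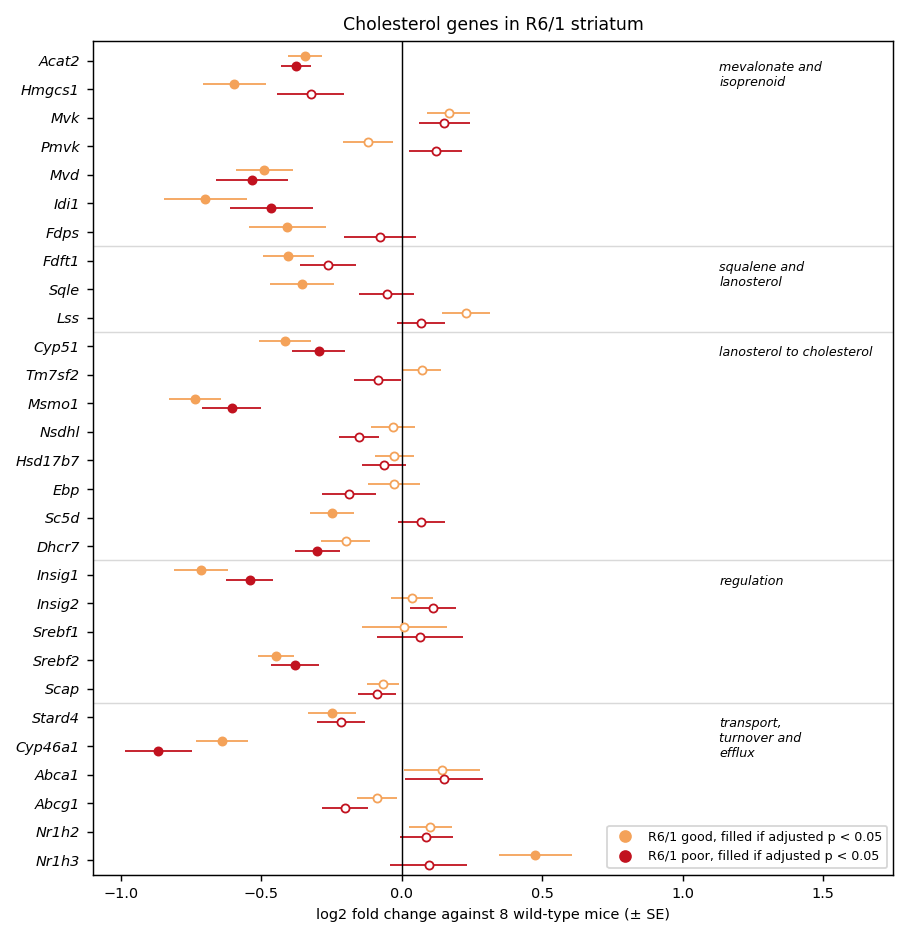
Log2 fold change ± SE of each member in the 4 R6/1 “good” mice (orange) and the 4 R6/1 “poor” mice (red) against the same 8 wild-type mice, grouped by step. Filled points have an adjusted p under 0.05 by edgeR; 14 members were lower and 1 higher in R6/1 “good” mice, and 9 lower in R6/1 “poor” mice.

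The bases upstream of the start bear on these genes because SREBP binds sterol regulatory elements there, together with the factor NF-Y, which binds CCAAT. RefSeq promoters of GRCm38.p6 were at hand for 24 of the 29 members, and the 250 bases before each start were searched on both strands for the sterol regulatory element TCACNCCAC, the CCAAT box, the E-box CACGTG, and the liver X receptor element, a direct repeat of AGGTCA with a gap of 4 bases. CCAAT was found in 19 of the 24 genes, in 60.6% of their 33 promoters against 33.8% of 32817 promoters of all genes. It was present in 9 of 10 members called lower in R6/1 mice and in 10 of 14 that were not called. TCACNCCAC was found in Hmgcs1 only, and 1.05% of all promoters hold it. The E-box was found in 6 genes, or 18.2% of the members' promoters against 6.02% of all, and the liver X receptor element in 0, as against 0.0152% of all. A match of letters is a description and not a bound site. A missing match shows only that this exact form was not in the 250 bases searched. No promoter was at hand for Abcg1, Sqle, Fdft1, Fdps and Stard4. The following 250 bases, 5′ to 3′ on the strand of the gene, are shown for 3 members that were lower and for Mvk, which was not called and holds the most CCAAT boxes, with capitals marking the sterol regulatory element and each CCAAT or its reverse complement. No motif overlapped another in them.
Hmgcs1, chr13:119690101-119690350, plus strand: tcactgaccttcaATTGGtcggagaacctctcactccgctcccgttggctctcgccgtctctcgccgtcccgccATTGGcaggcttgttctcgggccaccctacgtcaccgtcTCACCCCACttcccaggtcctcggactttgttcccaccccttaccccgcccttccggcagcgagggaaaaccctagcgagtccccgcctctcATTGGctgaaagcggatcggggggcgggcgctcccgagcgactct
Mvd, chr8:122443423-122443672, minus strand: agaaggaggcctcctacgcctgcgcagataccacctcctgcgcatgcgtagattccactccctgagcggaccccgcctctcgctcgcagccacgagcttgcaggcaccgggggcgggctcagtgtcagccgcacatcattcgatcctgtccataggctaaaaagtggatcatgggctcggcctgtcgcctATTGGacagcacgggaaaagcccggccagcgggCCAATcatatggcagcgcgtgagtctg
Cyp46a1, chr12:108334066-108334315, plus strand: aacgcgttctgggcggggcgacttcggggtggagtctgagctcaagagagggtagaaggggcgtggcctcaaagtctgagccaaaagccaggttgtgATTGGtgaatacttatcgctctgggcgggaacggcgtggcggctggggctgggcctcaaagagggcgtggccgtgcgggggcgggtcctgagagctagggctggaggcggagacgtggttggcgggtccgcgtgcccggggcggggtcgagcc
Mvk, chr5:114444019-114444268, plus strand: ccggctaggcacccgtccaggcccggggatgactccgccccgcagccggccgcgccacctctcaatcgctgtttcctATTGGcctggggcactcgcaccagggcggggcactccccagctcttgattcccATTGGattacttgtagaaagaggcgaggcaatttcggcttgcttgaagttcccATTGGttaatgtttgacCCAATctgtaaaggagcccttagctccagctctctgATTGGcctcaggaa
Hmgcs1 holds its sterol element 137 bases before the start and CCAAT boxes at 237, 176 and 45 bases. Mvd holds boxes at 60 and 27 bases and Cyp46a1 a single box at 153 bases, while Mvk holds 5, at 173, 120, 67, 50 and 14 bases before the start.

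In the mevalonate and isoprenoid steps, 4 of 7 members were lower in R6/1 mice, and Mvk, Pmvk and Fdps were not called. Acat2 (ENSMUSG00000023832, chr17:12942890-12960747, minus strand) encodes the thiolase that joins acetyl-CoA units. Its levels were 38.2, 35.3, 38.7 and 38.8 CPM in wild-type “good” mice 1 to 4 and 38.5, 38.2, 37.9 and 38.1 in wild-type “poor” mice 1 to 4. They were 32.7, 30.2, 26.4 and 30.2 CPM in R6/1 “good” mice 1 to 4 and 29.9, 30.8, 28.5 and 27.7 in R6/1 “poor” mice 1 to 4. Every R6/1 mouse lay below every wild-type mouse, and the wild-type mice differed little from each other. For Acat2 the log2 fold change came to -0.36 ± 0.045 (SE), 1.28-fold lower, with an adjusted p of 1.03e-05. Mvd (ENSMUSG00000006517, chr8:122433601-122443422, minus strand), which encodes the decarboxylase that ends the mevalonate pathway, had 15.6, 19.7, 15.4 and 14.8 CPM in wild-type “good” mice and 19.3, 20.3, 16.5 and 18.98 in wild-type “poor” mice. It had 13.6, 12.3, 11.5 and 12.5 CPM in R6/1 “good” mice and 11.4, 12.4, 9.32 and 15.4 in R6/1 “poor” mice. The R6/1 “good” mice all lay below the wild-type mice, whereas R6/1 “poor” mouse 4 lay above the lowest of them. Mvd had a log2 fold change of -0.51 ± 0.095, adjusted p 0.000425.

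Idi1 (ENSMUSG00000058258, chr13:8885501-8892451, plus strand), the isomerase that makes the reactive isoprenoid unit, had 52.7, 85.8, 58.3 and 46.6 CPM in wild-type “good” mice and 47.8, 70.1, 57.4 and 54.5 in wild-type “poor” mice. Its levels were 41.4, 35.7, 31.8 and 36.8 CPM in R6/1 “good” mice and 41.97, 36.7, 42.97 and 49.9 in R6/1 “poor” mice. R6/1 “poor” mouse 4 lay among the wild-type mice and the other 7 R6/1 mice below them, and wild-type “good” mouse 2 was the highest. Idi1 had a log2 fold change of -0.58 ± 0.12, 1.49-fold lower, adjusted p 0.00105. Hmgcs1 ran from 170.1 to 253 CPM in the wild-type mice and from 119.98 to 205 in the R6/1 mice, with a log2 fold change of -0.45 ± 0.10 and an adjusted p of 0.00276. Mvk, the kinase between the HMG-CoA steps and Mvd, ranged over 13.5 to 17.8 CPM in wild-type and 15.9 to 21.7 CPM in R6/1 mice, with a log2 fold change of 0.16 ± 0.066 that did not pass (adjusted p 0.0709). Without R6/1 “poor” mouse 3 its adjusted p was 0.0364. Pmvk, the next kinase, was at 0.00649, and Fdps, the farnesyl diphosphate synthase, at -0.23, or -0.32 with an adjusted p of 0.0399 without R6/1 “poor” mouse 4. The reads of Hmgcs1 and Idi1 could be shared in part with antisense models that cover 12.1% and 9.22% of their exons, which have 1041 and 13 counts in all against 60922 and 16921.

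Of the 3 squalene and lanosterol genes, Fdft1 was lower and Sqle and Lss were not called. Fdft1, the squalene synthase that commits the pathway to sterols, had 76.1, 99.9, 87.99 and 82.98 CPM in wild-type “good” mice and 84.2, 98.1, 79.4 and 79.2 in wild-type “poor” mice. It had 74.3, 69.9, 55.3 and 60.4 CPM in R6/1 “good” mice and 68.3, 59.04, 72.6 and 86.8 in R6/1 “poor” mice. Only R6/1 “poor” mouse 4 overlapped the wild-type mice. The log2 fold change was -0.33 ± 0.084, adjusted p 0.00511, within libraries 1 to 8 it was -0.36 and within libraries 9 to 16 -0.23, where the adjusted p was 0.17. Fdft1 lies against Ctsb on the opposite strand, which covers 18.3% of its exon bases and has 214780 counts against 26358, so part of its count may come from Ctsb if the counting did not use strand. Sqle, the epoxidase that follows, had 37.3, 44.5, 49.05 and 48.2 CPM in wild-type “good” and 46.4, 57.7, 43.6 and 51.97 in wild-type “poor” mice. It had 46.5, 37.2, 32.3 and 31.97 CPM in R6/1 “good” and 45.2, 39.5, 46.7 and 51.02 in R6/1 “poor” mice, so that the low values lay among the R6/1 “good” mice and the groups overlapped. Its log2 fold change was -0.20 ± 0.10, adjusted p 0.149. Lss, which closes the ring to lanosterol, had 42.1, 33.5, 40.2 and 44.96 CPM in wild-type “good” and 46.4, 39.97, 48.05 and 46.7 in wild-type “poor” mice, 50.1, 51.5, 45.3 and 53.4 in R6/1 “good” and 41.8, 47.4, 43.98 and 45.99 in R6/1 “poor” mice. The sign of Lss was opposite to that of its neighbours in the pathway, at 0.15 ± 0.070, and did not pass (adjusted p 0.109).

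All 8 genes of the steps from lanosterol to cholesterol had negative log2 fold changes, and 3 were called lower, Msmo1, Cyp51 and Dhcr7. Msmo1 (ENSMUSG00000031604, chr8:64718139-64733792, minus strand), the methylsterol oxidase, changed most among the synthesis genes. It had 117, 121, 95.5 and 96.4 CPM in wild-type “good” mice and 103, 121, 97.3 and 101 in wild-type “poor” mice. R6/1 “good” mice had 70.9, 64.9, 52.8 and 67.2 CPM and R6/1 “poor” mice 68.3, 55.2, 71.6 and 84.9. No R6/1 mouse reached the lowest wild-type mouse. This gave a log2 fold change of -0.67 ± 0.086, 1.59-fold lower, adjusted p 1.34e-05. Within libraries 1 to 8 it was -0.77 and within libraries 9 to 16 -0.52, called in both.

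Cyp51, the demethylase that acts on lanosterol itself, had 53.5, 73.2, 63.2 and 56.1 CPM in wild-type “good” mice and 60.8, 75.98, 59.8 and 58.7 in wild-type “poor” mice. It had 52.3, 46.8, 45.4 and 43.2 CPM in R6/1 “good” mice and 51.3, 44.9, 53.8 and 54.2 in R6/1 “poor” mice. The overlap was slight, since the lowest wild-type mouse lay below R6/1 “poor” mice 3 and 4 only. In log2 terms the change was -0.35 ± 0.074, adjusted p 0.00117. Dhcr7, a reductase of the last steps, had 29.01, 27.9, 34.4 and 34.8 CPM in wild-type “good” and 35.03, 31.4, 33.6 and 36.5 in wild-type “poor” mice. In R6/1 “good” mice it had 33.3, 27.96, 26.2 and 26.9 CPM and in R6/1 “poor” mice 25.1, 28.6, 25.7 and 27.3. R6/1 “good” mouse 1 lay well among the wild-type mice, R6/1 “good” mouse 2 and R6/1 “poor” mouse 2 just above the lowest of them, and the log2 fold change was -0.25 ± 0.067, adjusted p 0.00749. It was -0.21 within libraries 1 to 8, adjusted p 0.129, and -0.33 within libraries 9 to 16, adjusted p 0.0345. The other 5, the reductase Tm7sf2, the dehydrogenases Nsdhl and Hsd17b7, the isomerase Ebp and the desaturase Sc5d, had log2 fold changes from -0.11 for Ebp to -0.0049 for Tm7sf2 and were not called. Tm7sf2 shares 12.1% of its exons with Vps51 on the same strand, so its count is uncertain.

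Among the 5 regulators, Insig1 and Srebf2 were lower, and their partners Insig2, Srebf1 and Scap were not called. Insig1 (ENSMUSG00000045294, chr5:28071363-28078662, plus strand), itself a target of SREBP, had 84.5, 79.1, 85.1 and 66.7 CPM in wild-type “good” mice and 94.7, 78.7, 78.3 and 89.1 in wild-type “poor” mice. It had 59.7, 50.9, 45.4 and 43.8 CPM in R6/1 “good” mice and 57.4, 50.8, 56.3 and 60.9 in R6/1 “poor” mice. All 8 R6/1 mice lay below all 8 wild-type mice. Its log2 fold change was -0.62 ± 0.077, 1.54-fold lower, adjusted p 8.43e-06. Srebf2 (ENSMUSG00000022463, chr15:82147181-82205379, plus strand) had 244, 231, 212 and 236 CPM in wild-type “good” and 227, 216, 209 and 213 in wild-type “poor” mice. It had 180.00, 161, 146 and 169 CPM in R6/1 “good” and 142, 177, 160.03 and 208 in R6/1 “poor” mice. The ranges did not overlap, though R6/1 “poor” mouse 4 came close to the lowest wild-type mouse. This rests on the TMM scaling described below. Before it, R6/1 “poor” mouse 4 had 5083 of 24439777 counts, a larger share than the 4655 of 22695444 in wild-type “good” mouse 3. Srebf2 had a log2 fold change of -0.41 ± 0.067, adjusted p 0.00012, and within libraries 9 to 16 it was -0.35 with an adjusted p of 0.0533.

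Scap, the escort of SREBP, had 79.3, 68.4, 73.9 and 80.2 CPM in wild-type “good” and 76.9, 68.8, 74.4 and 72.2 in wild-type “poor” mice. Its values were 68.95, 70.4, 70.7 and 73.5 CPM in R6/1 “good” and 62.8, 76.9, 64.5 and 75.1 in R6/1 “poor” mice, with wide overlap and a log2 fold change of -0.077 ± 0.050, adjusted p 0.249. Insig2, which does the work of Insig1 but is not under the same sterol control, ranged over 49.6 to 66.5 CPM in wild-type and 55.04 to 66.7 in R6/1 mice, at 0.074 ± 0.062. Srebf1, whose product mainly drives fatty acid synthesis, ranged over 56.8 to 105 CPM and 63.6 to 106 CPM, at 0.038 ± 0.12. Neither log2 fold change passed, with adjusted p of 0.377 for Insig2 and 0.837 for Srebf1. Both paralogue pairs thus held 1 member that was lower and 1 that was not called. The difference within a pair was not tested.

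**Figure D3:**
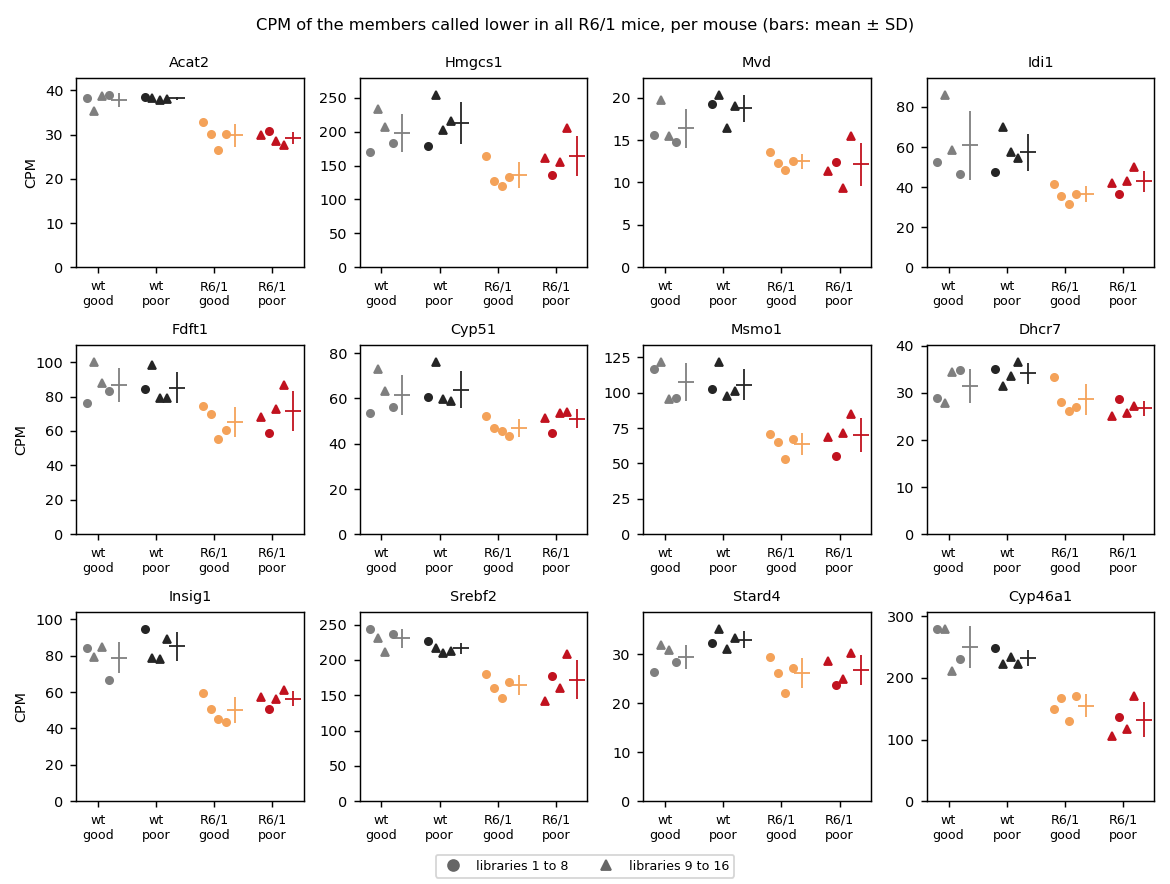
CPM per mouse of the 12 members called lower in R6/1 mice, by group, with bars for mean ± SD (n = 4) and marker shapes for the running number of the library (circles 1 to 8, triangles 9 to 16). For Acat2, Msmo1, Insig1, Srebf2 and Cyp46a1 the R6/1 and wild-type mice do not overlap.

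Of the 6 transport, turnover and efflux genes, Cyp46a1 and Stard4 were lower, and the pumps Abca1 and Abcg1 and the receptors Nr1h2 and Nr1h3 were not called. Cyp46a1 (ENSMUSG00000021259, chr12:108334381-108362234, plus strand) had 279, 279, 211 and 230.3 CPM in wild-type “good” mice and 249, 223, 234 and 223 in wild-type “poor” mice. It had 150.4, 168, 129.9 and 171 CPM in R6/1 “good” mice and 106, 136, 116 and 171 in R6/1 “poor” mice. Every R6/1 mouse was lower than every wild-type mouse, and the 3 lowest were R6/1 “poor” mice 1 and 3 and R6/1 “good” mouse 3. The log2 fold change, -0.75 ± 0.099, was the most negative of the members, 1.68-fold lower with an adjusted p of 1.74e-05. It was called within libraries 1 to 8 at -0.75 and within libraries 9 to 16 at -0.84. Stard4, which carries sterols between membranes, had 26.5, 31.98, 30.9 and 28.4 CPM in wild-type “good” and 32.3, 35.2, 31.2 and 33.3 in wild-type “poor” mice. It had 29.4, 26.3, 22.1 and 27.2 CPM in R6/1 “good” and 28.6, 23.7, 25.01 and 30.3 in R6/1 “poor” mice, and the groups overlapped. Its log2 fold change was -0.23 ± 0.070, adjusted p 0.0158, and it was not called within libraries 1 to 8 (-0.19, adjusted p 0.215) or 9 to 16 (-0.22, adjusted p 0.0991).

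Nr1h3, which encodes liver X receptor alpha, had 4.23, 4.47, 3.18 and 4.25 CPM in wild-type “good” and 4.69, 3.48, 4.49 and 3.78 in wild-type “poor” mice. It had 4.998, 6.23, 5.26 and 6.14 CPM in R6/1 “good” mice and 4.27, 4.54, 3.53 and 5.07 in R6/1 “poor” mice. The R6/1 “good” mice lay above all wild-type mice, as did R6/1 “poor” mouse 4, and the other 3 R6/1 “poor” mice lay among them. Over all 16 mice its log2 fold change was 0.30 ± 0.12, adjusted p 0.069, and without R6/1 “poor” mouse 3 0.36, adjusted p 0.0236. Nr1h2, the other liver X receptor, was at 0.095 ± 0.073 and Abca1 at 0.15 ± 0.11, neither called. Abcg1 was at -0.14 ± 0.064, adjusted p 0.0937, with ranges of 89.97 to 115 CPM in wild-type and 79.5 to 105 CPM in R6/1 mice. It was called without wild-type “good” mouse 4, wild-type “poor” mouse 2 or R6/1 “good” mouse 4, with adjusted p of 0.0392 to 0.0471, and within libraries 9 to 16 at -0.29, adjusted p 0.0268. Within libraries 1 to 8 Abcg1 was at -0.071, adjusted p 0.607.

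Each R6/1 group was also set against the 8 pooled wild-type mice, which both comparisons share. In R6/1 “good” mice 14 of 29 members were lower and 1, Nr1h3, was higher, against 12.4% and 12.1% of all genes, or 24.6% called in all. In R6/1 “poor” mice 9 were lower and 0 higher, against 14.9% and 13.5% of all genes, or 28.5% in all. At an unadjusted p under 0.05 these counts were 18 members in R6/1 “good” and 13 in R6/1 “poor” mice, beside 37.3% and 39.7% of all genes. The median log2 fold change of the members was -0.20 in R6/1 “good” and -0.15 in R6/1 “poor” mice, beside 0.011 and 0.0032 for all genes. No overlap with the wild-type mice was seen for 10 members on the lower side in R6/1 “good” mice and for 5 in R6/1 “poor” mice, where 7.76% and 8.85% of all genes showed it. On the higher side it was seen for 2 members in R6/1 “good” mice, Mvk and Nr1h3, where 7.46% of all genes showed it, and for 0 in R6/1 “poor” mice, against 7.25%.

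The members called lower in each of the 2 comparisons included Acat2, Mvd, Idi1, Cyp51, Msmo1, Insig1, Srebf2 and Cyp46a1. For Msmo1 the log2 fold changes were -0.74 ± 0.092 in R6/1 “good” and -0.61 ± 0.11 in R6/1 “poor” mice, and for Insig1 -0.72 ± 0.096 and -0.54 ± 0.083. For Cyp46a1 they were -0.64 ± 0.092 and -0.87 ± 0.12, the largest size among the members in R6/1 “poor” mice. Hmgcs1 was at -0.60 ± 0.11 (adjusted p 0.00144) in R6/1 “good” mice and at -0.32 ± 0.12 (adjusted p 0.0534) in R6/1 “poor” mice. Dhcr7 was called in R6/1 “poor” mice alone, at -0.30 with an adjusted p of 0.011, beside -0.20 and 0.103 in R6/1 “good” mice. A call in one group and not in the other does not show that the groups differ, and the direct comparison follows below.

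Several of these calls lay near the threshold. In R6/1 “good” mice Fdps (-0.41, adjusted p 0.0428), Sqle (-0.36, 0.0351), Sc5d (-0.25, 0.03) and Stard4 (-0.25, 0.0445) lost their calls when 9, 6, 3 and 9 of the 12 mice, one at a time, were left out. For Sc5d these were R6/1 “good” mice 2, 3 and 4, with adjusted p of 0.0582 to 0.0967, and for Sqle they were wild-type “good” mouse 3, wild-type “poor” mice 2 and 4 and R6/1 “good” mice 2, 3 and 4, with 0.0522 to 0.111. Adjusted p without 1 mouse reached 0.14 for Fdps and 0.155 for Stard4, in each case for R6/1 and wild-type mice alike, save wild-type “good” mouse 2, wild-type “poor” mouse 3 and R6/1 “good” mouse 1 for Fdps and wild-type “good” mice 1 and 4 and R6/1 “good” mouse 1 for Stard4. Nr1h3 (0.48, adjusted p 0.0145) lost its call without R6/1 “good” mouse 2 (adjusted p 0.0589). Within libraries 1 to 8, where all R6/1 “good” and 3 wild-type mice lie, these 5 were not called, and 18.6% of all genes were. Within these libraries Sc5d was at -0.090, Stard4 at -0.16 and Nr1h3 at 0.35. Hmgcs1 was called there at -0.39 (adjusted p 0.0258) and Idi1 at -0.44 (0.0104), both over 1.5 times smaller than the -0.60 and -0.70 against all 8 wild-type mice, and Cyp51 at -0.29 (0.0333) against -0.42. With the library number as a covariate 8 members and 20.5% of all genes were called, Hmgcs1 at -0.38 and Idi1 at -0.43 among them, while Cyp51 at -0.28 was not (adjusted p 0.063). Lss (0.23) and Dhcr7 gained a call in R6/1 “good” mice, Lss without wild-type “poor” mouse 3 (adjusted p 0.0451) and Dhcr7 without wild-type “good” mouse 2 or R6/1 “good” mouse 1 (0.0476 and 0.0377).

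In R6/1 “poor” mice the calls of Idi1 (-0.46, adjusted p 0.0314) and Cyp51 (-0.30, 0.0284) were lost without R6/1 “poor” mouse 1, 2 or 3, with adjusted p up to 0.0952 and 0.0949. That of Idi1 was also lost without wild-type “poor” mouse 2 (0.0515). R6/1 “poor” mouse 4 was the highest of its group for Hmgcs1, Mvd, Idi1, Fdft1, Cyp51, Msmo1, Insig1, Srebf2, Stard4 and Cyp46a1. Without it Hmgcs1 was called at -0.45 (adjusted p 0.00899), Fdft1 at -0.37 (0.00966) and Stard4 at -0.28 (0.0319). These 3 also gained a call without wild-type “good” mouse 1, at adjusted p of 0.0337, 0.0467 and 0.036, and Hmgcs1 without wild-type “good” mouse 4 or wild-type “poor” mouse 1 (0.049 and 0.0476). Abcg1 (-0.20) was called without wild-type “good” mouse 4, wild-type “poor” mouse 2 or R6/1 “poor” mouse 2, at adjusted p of 0.0182 to 0.0474. Within libraries 9 to 16, with 3 R6/1 “poor” and 5 wild-type mice, the log2 fold change of Msmo1 was -0.52 and that of Cyp46a1 -0.84. Within libraries 1 to 8, with R6/1 “poor” mouse 2 alone, only Msmo1 (-0.93) and Cyp46a1 (-0.89) were called of the members, beside 2.30% of all genes, on the assumption that this mouse varied like the others.

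When the 2 R6/1 groups were set against each other, “poor” against “good”, edgeR called 0 of 29 members and 0 of all genes (0%), and 4 members and 15.5% of all genes had an unadjusted p under 0.05. DESeq2 called 1 member, Sc5d, and 356 of all genes, which is 2.46% of those given an adjusted p. The groups overlapped for every member, while 2.45% of all genes lay wholly higher and 4.00% wholly lower in “poor” mice. Sc5d, the desaturase of the last steps, had 63.8, 73.9, 75.9 and 62.9 CPM in wild-type “good” and 59.7, 79.3, 72.3 and 72.5 in wild-type “poor” mice. It had 63.2, 59.01, 59.4 and 54.1 CPM in R6/1 “good” mice and 78.1, 62.8, 75.8 and 77.1 in R6/1 “poor” mice. R6/1 “poor” mouse 2, whose library is numbered with those of the R6/1 “good” mice, lay at the level of the highest R6/1 “good” mouse, and the other 3 lay above. The log2 fold change was 0.33 ± 0.083, with an adjusted p of 0.248 by edgeR and 0.0325 by DESeq2, and 0.10 ± 0.11 (SE) within libraries 1 to 8. The other members with an unadjusted p under 0.05 were Sqle at 0.32 ± 0.12, Idi1 at 0.25 ± 0.10 and Nr1h3 at -0.36 ± 0.15. Hmgcs1 was at 0.29 ± 0.14 and Fdps at 0.34 ± 0.20.

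Within libraries 1 to 8 only R6/1 “poor” mouse 2 remains against the 4 R6/1 “good” mice, so what is particular to this mouse and the library number cannot be told apart. There the log2 fold change was 0.00563 ± 0.17 (SE) for Hmgcs1, 0.020 for Idi1 and 0.10 for Sqle. That of Nr1h3 was -0.31, near its value over all libraries. Of the 29 members 17 were positive over all libraries and 14 within libraries 1 to 8. Mvk, Pmvk, Fdft1, Cyp51, Msmo1, Insig2 and Stard4 went from positive to negative, with Msmo1 at 0.15 and -0.20, and Acat2, Dhcr7, Scap and Abcg1 from negative to positive. No R6/1 “good” mouse has a library numbered 9 to 16, so for the other 3 R6/1 “poor” mice performance and library number cannot be told apart. The plot of both sets of log2 fold changes gives the values of each member.

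**Figure D4:**
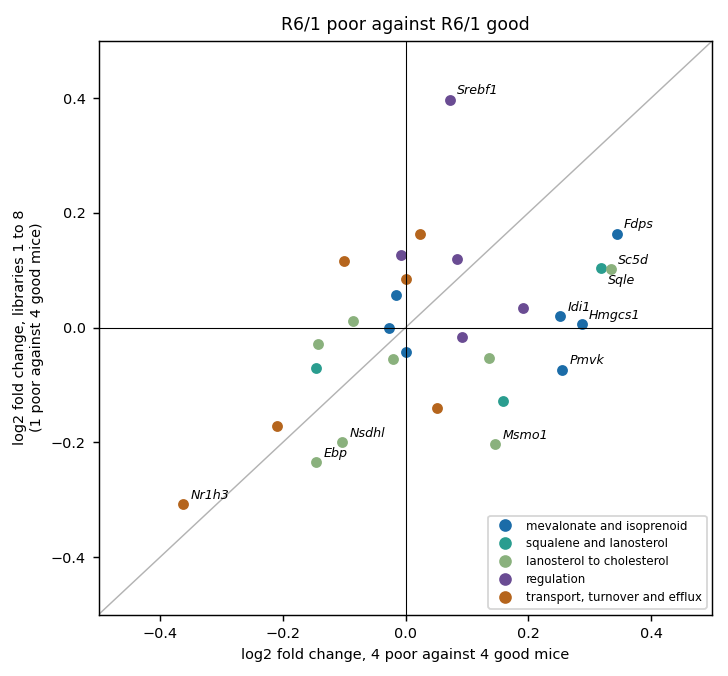
Log2 fold change of each member in R6/1 “poor” against R6/1 “good” mice, over all 8 libraries (x axis) and within libraries 1 to 8 (y axis, 1 “poor” against 4 “good” mice), coloured by step; the diagonal marks equal values. Hmgcs1, Idi1, Sqle and Sc5d lie to the right, at 0.25 to 0.33, and between 0.00563 and 0.10 on the y axis, while Nr1h3 lies near the diagonal. Fdps at 0.34 and Pmvk at 0.26 on the x axis also lie to the right, and Pmvk is negative on the y axis.

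Between wild-type “poor” and wild-type “good” mice 0 members and 0% of all genes were called by edgeR, 0 members had an unadjusted p under 0.05 against 2.44% of all genes, and DESeq2 called 0 genes. All members overlapped, beside 0.770% of all genes that lay wholly higher and 1.01% wholly lower in wild-type “poor” mice. The log2 fold changes of the members ran from -0.14 to 0.19. In the interaction of genotype and performance edgeR called 0 members and 0% of all genes, with 2 members, Lss and Sc5d, and 5.77% of all genes at an unadjusted p under 0.05, and DESeq2 called 0 members and 1 gene. Lss had the smallest p. It was higher in the R6/1 “good” than in the R6/1 “poor” mice on average and lower in the wild-type “good” than in the wild-type “poor” mice, with an interaction of -0.34 ± 0.12 on the log2 scale and an adjusted p of 0.826. For Sc5d the interaction was 0.28 ± 0.13, with the same adjusted p.

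A mean level per step was taken for each mouse, as the mean log2 CPM of the step's genes minus the mean of the 8 wild-type mice. For the mevalonate and isoprenoid genes it ran from -0.45 to -0.19 in R6/1 “good” mice and from -0.34 to -0.00248 in R6/1 “poor” mice, where mouse 4 lay at the wild-type mean. For the genes from lanosterol to cholesterol it was -0.20 ± 0.096 (SD, n = 4) in R6/1 “good” and -0.20 ± 0.098 in R6/1 “poor” mice. The mean over the 5 regulators was -0.23 ± 0.00994 in R6/1 “good” mice, among which single regulators such as Srebf1 spread more widely, and -0.17 ± 0.053 in R6/1 “poor” mice. For squalene and lanosterol genes the values were -0.18 ± 0.16 and -0.081 ± 0.12, and for transport, turnover and efflux -0.042 ± 0.089 and -0.16 ± 0.098, so that these overlapped the wild-type mice. From lanosterol to cholesterol the highest R6/1 “poor” mouse, at -0.061, overlapped them too. The highest R6/1 “good” mouse there was at -0.0824, beside -0.0823 for the lowest wild-type mouse. For regulation the highest R6/1 “poor” mouse was at -0.105, beside -0.104 for the lowest wild-type mouse. Wild-type means of the 5 steps lay between -0.052 and 0.052.

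**Figure D5:**
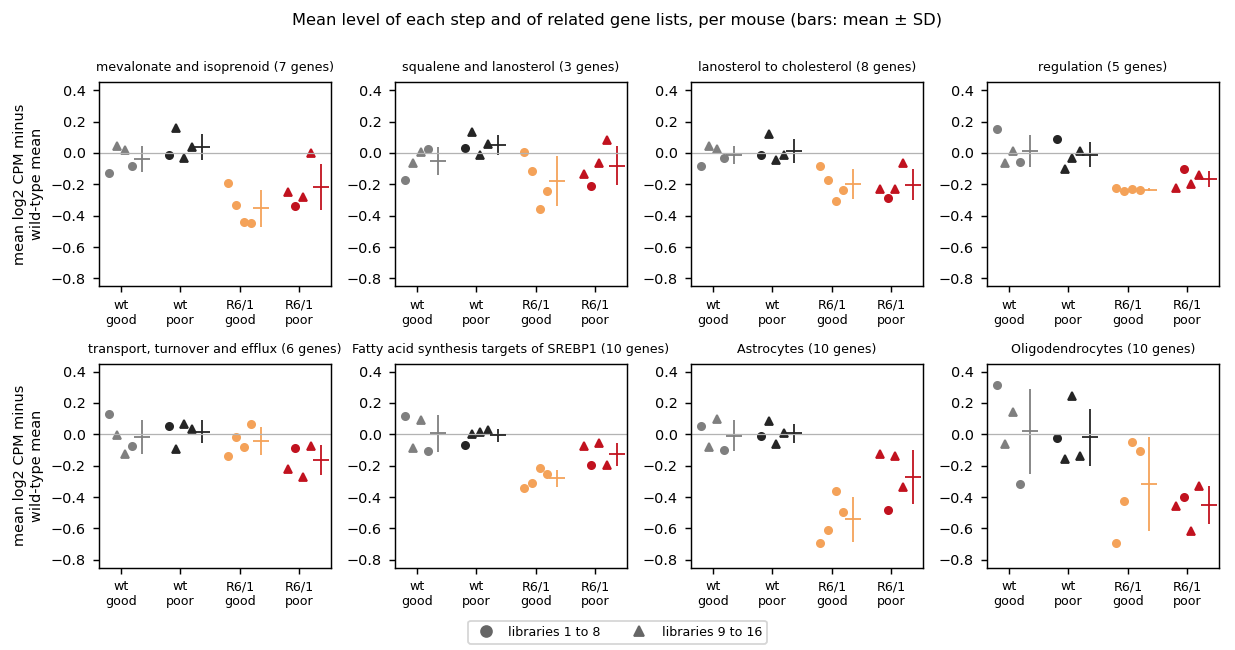
Mean log2 CPM of the genes of each step, and of 3 related lists, minus the mean of the 8 wild-type mice, per mouse and group, with bars for mean ± SD (n = 4) and marker shapes for the running number of the library. The astrocyte markers lie lowest in R6/1 “good” mice, at -0.54 ± 0.14, and the oligodendrocyte markers spread widely within groups.

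Astrocytes and oligodendrocytes make or hold much of the brain's cholesterol, and their markers were read in the same libraries. Beside the counts of each list below, 17.0% of all genes were called lower and 17.2% higher in R6/1 mice. Of 10 astrocyte markers 6 were lower in R6/1 mice and 0 higher, with a median log2 fold change of -0.34, led by the glutamate transporter Slc1a2 at -0.84 and the aldolase Aldoc at -0.66. Their summed level was 6077 to 6687 CPM in wild-type “good”, 5699 to 6239.9 in wild-type “poor”, 3538 to 4274 in R6/1 “good” and 3728 to 4280.4 in R6/1 “poor” mice. Of the 10, 9 were lower than in wild-type mice in the R6/1 “good” and 5 in the R6/1 “poor” group, beside 12.4% and 14.9% of all genes. The R6/1 “good” mice all have library numbers 1 to 8, unlike most wild-type mice. Between the R6/1 groups edgeR called 0 of 10, and all 10 had positive log2 fold changes, beside 17 of the 29 members. Of 10 oligodendrocyte markers 5 were lower and 0 higher, median -0.30, with Ugt8a at -0.70. Their summed level ran over 10269 to 15604, 10856 to 14139.9, 7280.1 to 11349 and 7585 to 9806 CPM in the same order of groups, with overlap between the genotypes.

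All 10 medium spiny neuron markers were lower, median -1.68, as Penk at -2.32 and Pde10a at -1.98, beside the neuronal gene Cyp46a1 at -0.75. The summed level of these markers was 6695 to 8633 CPM in wild-type “poor” and 2549.7 to 4140.3 CPM in R6/1 “good” mice, so the sums of the 2 genotypes did not overlap. In the direct comparison of the 2 R6/1 groups, “poor” against “good”, all 10 had negative log2 fold changes, with a median of -0.64. By edgeR 10 had an unadjusted p under 0.05, beside 15.5% of all genes, and 0 were called. The library number is tied to these groups. All 10 were also negative in wild-type “poor” against wild-type “good” mice, with a median of -0.17 and 0 at an unadjusted p under 0.05. Of 5 pan-neuronal markers 2 were lower and 1 higher, median -0.14, with summed levels of 2830.0 to 3746, 2849 to 3726, 2473 to 3502 and 2719.9 to 3591 CPM in the same order of groups. All 8 microglial markers were lower (median -0.40), as were 5 of 6 endothelial and mural markers (-0.32), and 0 of 4 ependymal and 0 of 3 hypothalamic markers tested were called. The hypothalamic markers Hcrt, Oxt and Pmch, 3 of the 6 listed, did not pass the filter on counts. The part of these shifts in the lower levels of the cholesterol genes was not tested.

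Other genes of the pathway came from lists of related genes. Fatty acid synthesis, which SREBP1 drives, had 7 of 10 genes lower and 0 higher in R6/1 mice, with a median of -0.26. Fads1, a fatty acid desaturase, was at -0.40 (adjusted p 3.13e-06) and Acly, which supplies acetyl-CoA to both fatty acids and cholesterol, at -0.45 (adjusted p 9.32e-05), beside Srebf1 itself at 0.038. Among R6/1 “good” mice 7 were lower and 0 higher, beside 12.4% and 12.1% of all genes. In R6/1 “poor” mice 3 were lower and 2 higher, beside 14.9% and 13.5% of all genes, while edgeR called 0 between the R6/1 groups. Of 6 genes that process or degrade SREBP and INSIG proteins, 2 were lower and 3 higher. Erlin1, which acts in the degradation of membrane proteins, was at -0.42 (adjusted p 0.000428) and the protease Mbtps1, which makes the first cut in SREBP, at -0.27 (adjusted p 0.00219).

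Around the liver X receptors, 3 of 7 partners and targets were lower and 1 higher, with a median of -0.18. Rxrg, a retinoid X receptor enriched in the striatum, was at -1.44 and Rxrb at -0.26, with adjusted p of 0.000504 and 0.00141. Of 3 oxysterol enzymes tested 0 were called, with Cyp27a1 at 0.28 and Cyp39a1 at 0.084 (adjusted p 0.114 and 0.651), beside the fall of Cyp46a1.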

How the data were processed

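Striatal mRNA of 16 mice was sequenced from TruSeq stranded libraries. The authors deposited raw read counts per Ensembl gene, not normalized, from reads aligned to GRCm38; the submitters' processing notes name TopHat 1.0.1, CASAVA and Bowtie, while the tool that counted reads, whether it used strand and which annotation it used are not given in the sources. All 55450 IDs were matched to symbols of GENCODE M21. Total counts per library ran from 16155356 to 24897354, and low members such as Fdps and Nr1h3 rest on few counts.

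Genes with 10 or more counts in 4 or more libraries were tested with edgeR 4.0.16 (R 4.3.3, limma 3.58.1), with TMM scaling and the robust quasi-likelihood test, and p-values were adjusted by Benjamini-Hochberg over all genes. Each comparison was fitted on its own mice, and the interaction on all 16. CPM values use the TMM library sizes. The TMM factors ran from 0.938 to 0.989 in wild-type mice and from 1.001 to 1.061 in R6/1 mice. DESeq2 1.42.0, other scalings and filters, the replicate block, the library number as a covariate or within its ranges, controls matched on performance, one fit of all groups, and leaving out each mouse were tried as alternatives.

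The members and gene lists were chosen with earlier results of these data known. Values of every mouse are given for up to 3 members per step with the smallest p for genotype over all 16 mice, and for the member with the smallest p in R6/1 “poor” against “good” and in the interaction. Of other lists, up to 2 genes with the smallest p are named, except 1 that is not reported here. Promoters are RefSeq sequences of GRCm38.p6, of which the 250 bases before the start were used and the 50 after it left out. Of the listed genes, Spring1 was not matched, and Ch25h, Hsd3b7, Hcrt, Oxt and Pmch did not pass the filter. Figures were drawn with matplotlib 3.10.9. Replicates are separate mice.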

Additional observations from a re-analysis of the deposited data

Results flagged for a closer look

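Each of the 29 members was examined in each group of 4 mice for a mouse that stood apart, by the gap to its nearest neighbour over the range of the group, with a critical value of 0.829. Of 116 groups 4 were picked out in this way, and chance alone picks out about 1 in 20. Mvd, the mevalonate decarboxylase, was at 19.73 CPM in wild-type “good” mouse 2, while the other 3 mice of the group lay between 14.8 and 15.6 CPM. Cyp51, the lanosterol demethylase, was at 75.98 CPM in wild-type “poor” mouse 2, above the 58.7 to 60.8 CPM of the other 3. Sc5d, the desaturase, was at 62.8 CPM in R6/1 “poor” mouse 2, the only library of that group numbered 1 to 8, while the other 3 lay between 75.8 and 78.1 CPM. Abca1, the efflux pump, was at 67.3 CPM in R6/1 “poor” mouse 4, below the 95.0 to 98.4 CPM of the other 3. The interaction test of genotype and performance by edgeR called 0 members, with 2 at an unadjusted p under 0.05, and all columns of the table were used in the comparisons.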

How the results depend on the processing

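The counts of members called were 12 in all R6/1, 15 in R6/1 “good” and 9 in R6/1 “poor” mice against wild-type mice, and 0 in the other comparisons. Without 1 mouse they ranged over 12 to 14, 10 to 16 and 7 to 12, and were 0 elsewhere. The shares of all genes called without 1 mouse ran over 31.0% to 34.3%, 17.8% to 24.7% and 18.9% to 28.8%, and up to 0.511% elsewhere. With the library range (1 to 8 or 9 to 16) as a covariate the count in R6/1 “good” mice was 8, beside 20.5% of all genes. With it 3 members gained a call in R6/1 “poor” mice and 26 did not change in call, beside 30.3% of all genes called. Within libraries 1 to 8 only 1 R6/1 “poor” mouse remains, so no count is given here. DESeq2 called 1 member in R6/1 “poor” against “good” mice, beside 2.46% of all genes given an adjusted p. The cause was not tested. Mice with the same replicate number showed little common deviation (24 pairs, r from -0.35 to 0.23, median 0.012, 5 over 0.1), beside a median of 0.0071 for other numbers. No pairing by number was seen, and a shared litter or cohort was not tested. For mice of the same library range the median r was 0.064, against -0.043 for mice of different ranges. With a replicate block 12, 12, 9 and 0 members were called, beside 32.63%, 23.97%, 26.51% and 0.496% of all genes. The order is all R6/1, R6/1 “good” and R6/1 “poor” against wild-type mice, then R6/1 “poor” against “good” mice. In the last comparison 96 of all genes were called with the block. There 28 were called with no filter on counts, and 61 and 99 without R6/1 “poor” mouse 2 or 4.

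All called members kept their sign in every setting. Signs turned in members that were not called in that comparison. In all R6/1 mice these were Tm7sf2 with no filter (0.00623), Pmvk with at least 50 counts (-0.00666) and Srebf1 with the covariate (-0.012). Within libraries 1 to 8 they were Pmvk (-0.048), Tm7sf2 (0.024), Hsd17b7 (0.016), Srebf1 (-0.081) and Nr1h2 (-0.022), and within libraries 9 to 16 Sc5d (0.043). The R6/1 “good” comparison held Srebf1 with DESeq2 (-0.00189) and RLE factors (-0.00216), Hsd17b7, Srebf1 and Nr1h2 with the covariate (0.039, -0.16 and -0.028) and within libraries 1 to 8 (0.025, -0.17 and -0.041), and Nsdhl, Hsd17b7 and Insig2 against wild-type “good” mice (0.016, 0.044 and -0.033). The R6/1 “poor” comparison held Pmvk, Tm7sf2 and Abcg1 within libraries 1 to 8 (-0.11, 0.000442 and 0.021) and Lss against wild-type “poor” mice (-0.016). Between the R6/1 groups, where other members also turned within libraries 1 to 8, Msmo1 was at -0.20 with the covariate and -0.20 within libraries 1 to 8.

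Leaving out 1 mouse, ranges that crossed 0 were -0.035 to 0.054 for Pmvk, -0.031 to 0.034 for Tm7sf2 and -0.028 to 0.096 for Srebf1 in all R6/1 mice. For R6/1 “good” mice they were -0.083 to 0.019 for Nsdhl, -0.061 to 0.00814 for Ebp and -0.078 to 0.11 for Srebf1. For R6/1 “poor” mice they were -0.21 to 0.00846 for Fdps, -0.11 to 0.00914 for Sqle, -0.062 to 0.15 for Srebf1 and -0.014 to 0.16 for Nr1h2. No value within libraries 9 to 16 could be had for R6/1 “good” mice. A mouse left alone in its group was assumed to vary like the others, and 4 mice a group and the depth of low genes limit what could be called.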

Other observations

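Branches of the pathway beyond the 29 members were read in the same comparison of all R6/1 with all wild-type mice. There 17.0% of all genes were called lower and 17.2% higher. Of 9 genes of the isoprenoid branch, which uses mevalonate products for ubiquinone, dolichol and protein prenylation, 1 was lower and 3 were higher in R6/1 mice, with a median log2 fold change of 0.17. Dhdds, a subunit of the dolichol-making prenyltransferase, was at 0.21 ± 0.041 (SE) with an adjusted p of 0.000595, and its partner Nus1 was at -0.22 ± 0.078 with an adjusted p of 0.0362. Pdss1, which builds the side chain of ubiquinone, was at 0.19 ± 0.064, adjusted p 0.0311, and Pggt1b, a prenyltransferase subunit, at 0.17 ± 0.059, adjusted p 0.0335. Nus1 and Pggt1b were named after their values were seen. All p-values are from edgeR.

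Of 13 genes of sterol trafficking, uptake and esterification, 5 were lower and 0 higher, beside 17.0% and 17.2% of all genes. Their median was -0.12. Lcat, which esterifies cholesterol on lipoproteins, was at -0.96 ± 0.086, adjusted p 3.02e-07, and Osbpl8, a lipid transfer protein between membranes, at -0.93 ± 0.11, adjusted p 4.88e-06. The lipoprotein receptor genes Lrp1, Lrp8 and Vldlr were not called, at log2 fold changes of 0.081, 0.048 and 0.016, and these 3 were named after their values were seen.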
